A study of Homo sapiens with 12 samples.

Results

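The genes described here are 2 RAS genes, HRAS and NRAS, and 7 genes that extracellular signal-regulated kinase (ERK) signaling is known to switch on, namely DUSP4, DUSP5, DUSP6, SPRY2, SPRY4, SPRED1 and ETV5. They were taken as a named list, not by their values, and all 9 were found by symbol among the 60504 entries of the deposited gene tables. They were measured by RNA sequencing in T24, an established human bladder carcinoma cell line known to carry an activated HRAS allele. The study asked how the U11 small nuclear RNA affects gene expression in these cells. In the knockout comparison, 2 libraries carried the label U11 knockout and 2 came from untreated T24. The overexpression comparison set 6 libraries labelled U11 overexpression, 2 for each of the line labels 79, 86 and 87, against 2 other libraries of untreated T24. Knockout cells were made with Cas9 and a pair of guide RNAs and taken on as a monoclonal line, and overexpressing cells were made by transfecting a plasmid carrying U11 followed by monoclonal selection. What the numbers 79, 86 and 87 stand for is not given in the sources used here, and nothing in the labels says that the 2 libraries of a group came from separate cultures. P-values therefore measure the spread between libraries, which may be technical.

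RAS proteins are small GTPases that pass signals from growth factor receptors to the RAF, MEK and ERK kinases. Active ERK enters the nucleus and drives the transcription of its own inhibitors, so that the messenger RNA of these inhibitors is widely read as a measure of pathway output. DUSP4 and DUSP5 are phosphatases that act on ERK in the nucleus, DUSP6 is the phosphatase of cytoplasmic ERK, and SPRY2, SPRY4 and SPRED1 restrain the pathway at the level of receptors, RAS and RAF. ETV5 is an ETS family transcription factor and a target of the same signal. U11 belongs to the minor spliceosome, where it pairs with the start of the rare U12-type introns.

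Because U11 acts through intron starts, the introns of these genes were searched for U12-type starts. Among introns of at least 60 bases in GENCODE release 44 on hg38, a start of ATATCCTT or GTATCCTT, read on the strand of the gene, was found in 631 of 39107 genes (1.61%). None of the 9 genes held such a start, in any annotated transcript. In their canonical transcripts they have between 1 intron (SPRY2 and SPRY4) and 12 introns (ETV5). Kinase genes that act between RAS and these target genes can hold them, and BRAF and MAPK3 (ERK1) are shown here. A match to these letters is a description of sequence and was not tested as a splice site. The sequences that follow are the first 20 intron bases of those 2 genes, with the matched letters in capitals, and the first 20 bases of the U11 gene RNU11 from the same annotation, with the bases complementary to CCTT in capitals. They are shown because U11 is known to pair with intron starts of this kind.
RNU11: aaaAAGGgcttctgtcgtga
BRAF: GTATCCTTcctgaaatttgt
MAPK3: GTATCCTTcaccttggccag
Both kinase genes lie on the minus strand. The BRAF sequence is at chr7:140754167-140754186 and opens intron 14 of 17 in the canonical transcript. The MAPK3 sequence is at chr16:30121804-30121823 and opens intron 2 of 8.

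The members themselves lie, in the hg38 coordinates of the deposited tables, at chr11:532242-537287 (HRAS), chr1:114704469-114716894 (NRAS), chr8:29333064-29350668 (DUSP4), chr10:110497838-110511544 (DUSP5) and chr12:89347232-89353271 (DUSP6). SPRY2 lies at chr13:80335976-80340951, SPRY4 at chr5:142310427-142326455, SPRED1 at chr15:38252326-38357249 and ETV5 at chr3:186046308-186110318. DUSP5 and SPRED1 are on the plus strand and the other 7 are on the minus strand. No strand setting is given in the sources used here, so reads of overlapping entries may not be told apart. The entries that overlap DUSP6, SPRY4 and ETV5 were low. The entry ENSG00000274021 opposite DUSP6 reached 3.16 TPM (Stringtie's length-scaled abundance, which adds up to an equal sum in all libraries). SPRY4-IT1 within SPRY4 reached 2.89 TPM, and DGKG, which overlaps 4651 bases of ETV5 on the same strand, reached 3.87 TPM.

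Before the results, 3 facts about the libraries matter. First, U11 by sequencing, summed over its 2 entries, went against the knockout label. The paper reports, from real-time quantitative PCR, significantly less U11 in the knockout line and significantly more in the overexpressing line than in wild-type T24. By sequencing, U11 was 21.4 and 23.8 TPM in the controls and 31.6 and 37.4 TPM under the knockout label, 1.53 times the control mean. An exact permutation test, two-sided, gave the smallest p that 2 against 2 allows. That smallest p lies above 0.05, so the test could not decide whether U11 differed. In the overexpression set U11 was 0.0334 and 0.623 TPM in the controls, 0.183 and 0.412 TPM in line 79, 3.98 and 3.72 TPM in line 86, and 61.9 and 53.6 TPM in line 87 (exact permutation test of 6 against 2, two-sided, p = 0.393, where 0.036 is the smallest possible). Line 79 thus did not stand above its controls by sequencing, where line 79 and the controls all read below 1 TPM. The labels name polyA RNA and the methods ribosomal RNA depletion, and how well either captures U11 was not tested. These values therefore cannot say how much U11 the cells held. Second, the sets differed in clustered histone genes, which took 2.77% to 3.43% of TPM in the 4 knockout-set libraries and 0.0103% to 0.018% in the 8 others. Whether the library type differed between the sets was not tested. Each comparison was therefore made only with its own controls. Last, the running numbers in the sample titles fall into 3 series, R18051 for the whole knockout set and R17018 and R18019 for the overexpression set, where each of these 2 series holds 1 library of every line label and 1 control. Aligned bases ranged from 9.07 to 15.33 gigabases. The carcinoma markers KRT7, KRT8, KRT18, VIM and CD44 were at or above 1 TPM in all 12 libraries, while EPCAM was not and, of 6 urothelial markers, GATA3 alone was. Blood and macrophage markers summed to 1.14 to 10.8 TPM, and HBB stood at 2.65 to 3.65 TPM in the 4 libraries of series R18019 and at 0.98 TPM or less elsewhere; its part in the results below was not tested.

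HRAS was by far the most abundant of the 9 transcripts. Untreated T24 had 139 and 134 TPM of HRAS in the knockout set and 354 and 353 TPM in the overexpression set. NRAS followed with 49.8 and 51.2 TPM, and 92.1 and 85.5 TPM. Among the feedback genes the untreated knockout-set levels ran, highest first, ETV5 (22.8 and 21.5 TPM), SPRED1 (19.6 and 22.8), DUSP4 (18.8 and 18.4), SPRY2 (16.1 and 15.8), SPRY4 (14.4 and 13.1), DUSP5 (11.97 and 11.72) and DUSP6 (10.4 and 8.60). ETV5 and SPRED1 overlapped in this order, and the others stood clear of their neighbours. In the untreated overexpression-set libraries the order was ETV5 (47.3 and 44.7 TPM), DUSP4 (43.9 and 42.1), SPRY2 (41.2 and 40.1), DUSP5 (24.98 and 23.3), SPRED1 (24.5 and 22.9), SPRY4 (23.0 and 23.1) and DUSP6 (16.2 and 12.04). Here SPRED1 overlapped with both DUSP5 and SPRY4. All 9 genes were higher in the second set of untreated cells, from 1.12 times (SPRED1) to 2.60 times (HRAS). Library type, series and culture cannot be told apart in that difference.

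**Figure D1:**
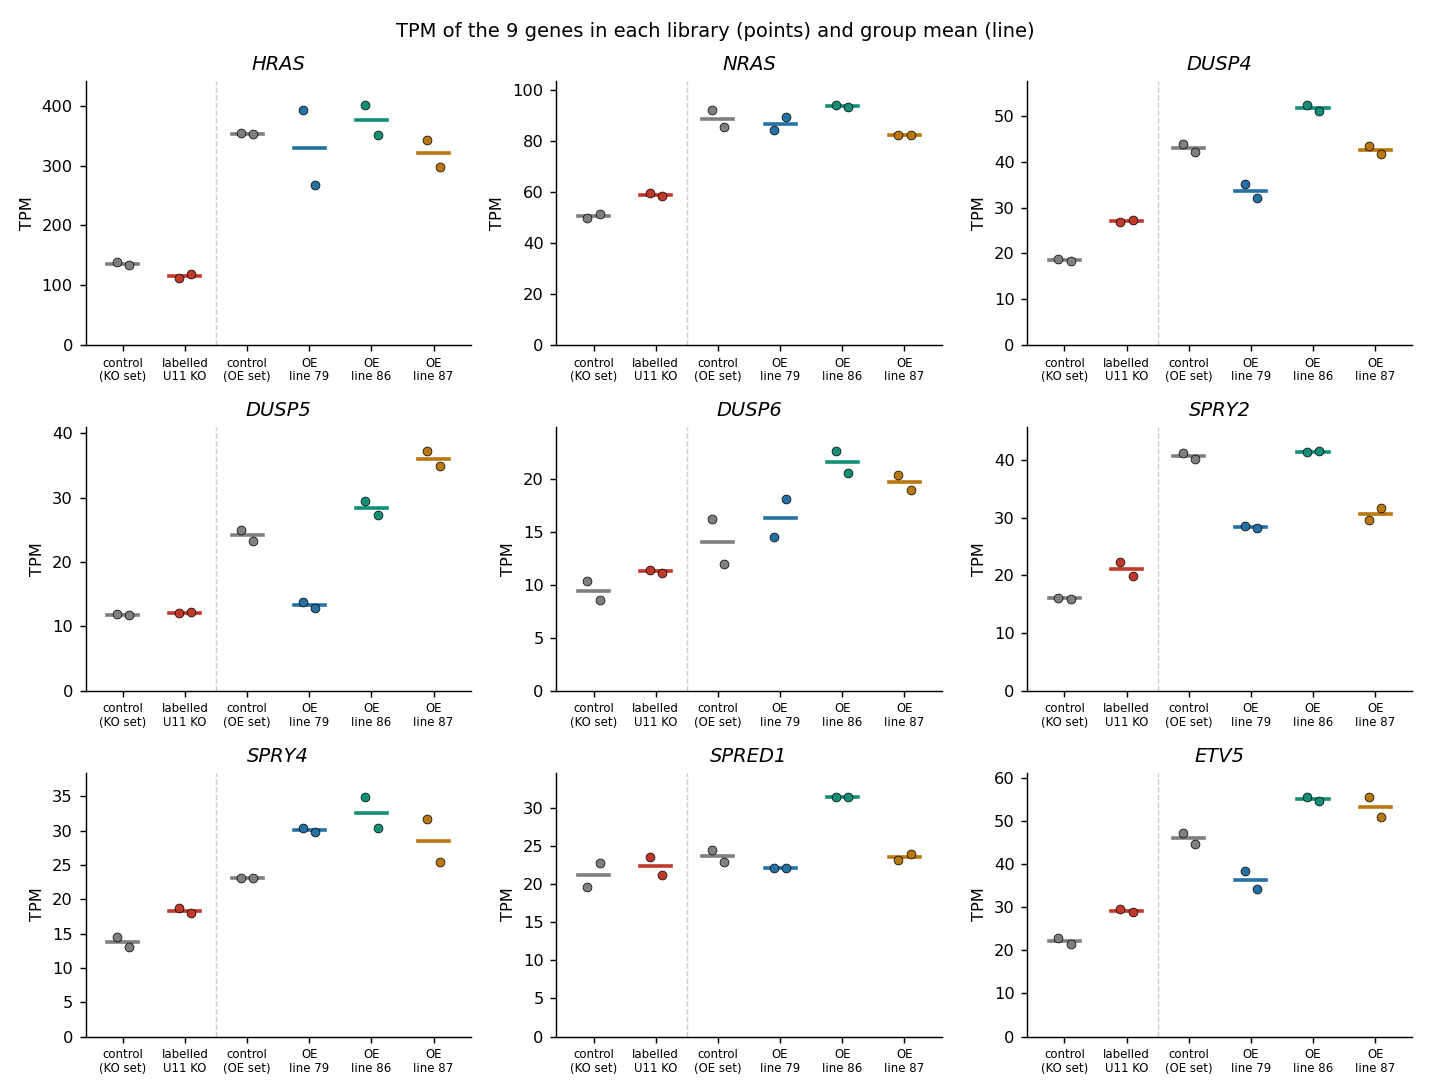
TPM (vertical axis, from 0) of each of the 9 genes in every library; points are libraries, lines are group means of 2 libraries, and the dashed line separates the knockout set from the overexpression set. DUSP5 is lowest in line 79 (13.8 and 12.9 TPM) and highest in line 87 (37.3 and 34.9 TPM) of the overexpression set, and HRAS stands above 100 TPM in every library.

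The knockout comparison was first read gene by gene. All feedback genes had a higher mean in the libraries labelled U11 knockout than in the controls, and HRAS had a lower one. DUSP4 was the clearest. It was 26.9 and 27.4 TPM against 18.8 and 18.4 TPM, a mean of 27.1 ± 0.326 (SD, n = 2) against 18.6 ± 0.282, or 0.52 ± 0.10 (SE) on the log2(TPM + 1) scale. It was the only member with an adjusted P below 0.05 (limma with Benjamini-Hochberg adjustment, 0.0462), 1 of 9 where 7.82% of all 14356 genes tested had one. That call was narrow: the adjusted P was 0.128 with median ratio scaling, 0.0597 with FPKM, 0.142 with the replicate numbers as a block, and between 0.074 and 0.206 when any of the 4 libraries was left out.

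ETV5 was 29.5 and 28.8 TPM against 22.8 and 21.5 TPM (log2 fold change 0.38 ± 0.10, limma adjusted P = 0.0836). SPRY4 was 18.7 and 18.0 TPM against 14.4 and 13.1 TPM (0.39 ± 0.11, limma adjusted P = 0.0982). SPRY2 was 22.4 and 19.9 TPM against 16.1 and 15.8 TPM (0.38 ± 0.11, limma adjusted P = 0.105). In each of the 3 genes both labelled libraries lay above both controls, and none passed after adjustment over all genes. With DUSP4 these were 4 of 9 genes higher at an unadjusted P below 0.05, where 20.6% of all genes were.

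The other feedback genes differed less. DUSP6 was 11.4 and 11.2 TPM against 10.4 and 8.60 TPM, a difference of 0.24 ± 0.13 on the log2 scale, with a wider gap between its controls than between the groups' nearest libraries. DUSP5 was 12.01 and 12.17 TPM against 11.97 and 11.72 TPM, a log2 difference of 0.03 ± 0.11 (limma adjusted P = 0.881). SPRED1 was 23.5 and 21.3 TPM against 19.6 and 22.8 TPM, and its groups overlapped.

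The RAS genes lay in opposite directions. HRAS was 112 and 118 TPM under the knockout label and 139 and 134 TPM in the controls, a log2 difference of -0.24 ± 0.08 (limma adjusted P = 0.136). NRAS was 59.6 and 58.4 TPM against 49.8 and 51.2 TPM, a difference of 0.22 ± 0.09 (limma adjusted P = 0.169). Neither passed after adjustment. None of the 9 genes passed the thresholds of the study, an unadjusted P below 0.05 with a fold change of at least 1.5, which 11.8% of all genes did. In 8 of 9 genes the groups did not overlap, 7 of them higher and HRAS lower, where 60.2% of all genes tested did not overlap in either direction. The median gene of this comparison stood at 0.108 on the log2 scale, and at -0.0175 with median ratio scaling, so that differences of about 0.1 carry no direction; DUSP5 and SPRED1 fell to -0.11 and -0.07 with that scaling. Median ratio scaling applies a common factor to all genes of a library, so the rises of the other members, NRAS and DUSP6 included, also became smaller. Without that scaling, the median of the 9 genes was 0.238. Some markers moved with the same label: VIM, a mesenchymal filament gene, rose from 1304 and 1259 TPM to 2254 and 2096 TPM (limma adjusted P = 0.0144), and KRT18 fell from 399.9 and 373 TPM to 292 and 269.7 TPM (adjusted P = 0.0448). The other keratins listed did not follow KRT18: KRT7 was 1308 and 1085 TPM against 1247 and 1156 TPM, and KRT8 399 and 372 TPM against 372 and 367 TPM. Of the 5 carcinoma markers tested, 3 were higher and 2 lower. CDH5, listed as an endothelial marker, fell from 4.85 and 4.75 TPM to 0.0316 and 0.0293 TPM (adjusted P = 0.0047), while VWF, PECAM1 and KDR were below 0.1 TPM in these 4 libraries. The part of these markers in the differences was not tested.

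With the 3 line labels pooled, no member passed a test in the overexpression comparison. None of the 9 passed the thresholds of the study, which 1.93% of 15768 genes did, and none had an adjusted P below 0.05, which 0.171% did (27 genes, with 946 at an unadjusted P below 0.05). SPRY4 was the only member whose groups did not overlap, as in 9.87% of all genes. Its 6 overexpression libraries ranged from 25.5 to 35.0 TPM with a median of 30.4 TPM, above the controls at 23.0 and 23.1 TPM (log2 fold change 0.38 ± 0.11, limma adjusted P = 0.537). The difference was 0.47 within series R17018 and 0.29 within series R18019, each over 3 libraries against 1. DUSP6 ranged from 14.6 to 22.7 TPM with a median of 19.7 TPM against 16.2 and 12.04 TPM (0.42 ± 0.17, limma adjusted P = 0.769). Its value hung on the control, at 0.21 within series R17018 and 0.64 within series R18019. HRAS ranged from 267 to 401 TPM around its controls, with a difference of -0.06 ± 0.15, at 0.09 within series R17018 and -0.22 within series R18019. NRAS ranged from 82.2 to 94.2 TPM, a difference of -0.02 ± 0.08, at -0.08 and 0.05 within the 2 series. DUSP5, with a pooled difference of -0.01 ± 0.40, had the largest standard error of the 9, and its libraries split by line label.

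The line labels differed from each other in 5 of the 9 genes. An F test over lines 79, 86 and 87 (limma, Benjamini-Hochberg adjustment over all genes) gave an adjusted P of 0.000724 for DUSP5, 0.00776 for DUSP4 and for SPRY2, 0.00974 for ETV5 and 0.0115 for SPRED1, where 16.0% of all genes fell below 0.05. HRAS (0.595), SPRY4 (0.528), DUSP6 (0.283) and NRAS (0.223) did not differ past the threshold. All 5 genes that differed had both libraries of line 79 below both libraries of line 86, a description, since these same libraries picked the genes.

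DUSP5, which removes phosphate from ERK and holds it in the nucleus, spread widest. It was 13.8 and 12.9 TPM in line 79, 24.98 and 23.3 TPM in the controls, 29.4 and 27.4 TPM in line 86, and 37.3 and 34.9 TPM in line 87. The 4 groups did not overlap. Against the controls it was lower in line 79 by a log2 difference of -0.81 ± 0.09 (limma adjusted P = 0.00339) and higher in line 87 by 0.56 ± 0.09 (adjusted P = 0.0238). Line 79 differed from line 86 by -1.04 and from line 87 by -1.37.

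SPRY2, an inhibitor of receptor signaling to RAS, was 41.2 and 40.1 TPM in the controls and 41.3 and 41.6 TPM in line 86 (0.03 ± 0.07). It was lower in line 79, at 28.6 and 28.2 TPM (-0.50 ± 0.07, limma adjusted P = 0.00825), and in line 87, at 29.6 and 31.6 TPM (-0.40 ± 0.07, adjusted P = 0.0348). DUSP4 was 35.1 and 32.1 TPM in line 79, 52.4 and 51.0 TPM in line 86 and 43.4 and 41.7 TPM in line 87, against 43.9 and 42.1 TPM. Of these, line 79 fell below the controls (-0.35 ± 0.07, limma adjusted P = 0.0356), a call that median ratio scaling took to 0.0584. ETV5 was 38.3 and 34.1 TPM in line 79, 55.6 and 54.6 TPM in line 86 and 55.5 and 50.8 TPM in line 87, against 47.3 and 44.7 TPM. The adjusted P of ETV5 in line 79 was 0.0593, and 0.0246 with the library series as a block. SPRED1, which acts with neurofibromin to switch RAS off, was 31.5 TPM in each library of line 86 and between 22.1 and 24.5 TPM in the other 6 libraries (0.40 ± 0.07 against controls, limma adjusted P = 0.0558).

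When any of the 8 libraries was left out, DUSP5 in line 79 kept an adjusted P of 0.00941 to 0.0311, and SPRY2 in line 79 had 0.0181 to 0.0587. DUSP5 in line 87 had 0.0475 to 0.14, and the calls of DUSP4 in line 79 (0.0624 to 0.163) and of SPRY2 in line 87 (0.0712 to 0.175) were lost without any one of them.

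Set against the background, 3 of 9 genes were lower in line 79 at an adjusted P below 0.05 where 9.91% of all genes were called in either direction. No member was called in line 86 (1.96% of all genes). All 9 stood higher there, as did 52.3% of all genes, by as little as 0.03 on the log2 scale in SPRY2. In line 87, 2 members were called (3.68%), DUSP5 higher and SPRY2 lower. Between lines, 5 of 9 differed for 79 and 86 (13.5% of all genes), 3 for 79 and 87 (10.5%) and 2 for 86 and 87 (6.41%). DUSP6 in line 86, at 22.7 and 20.6 TPM, was the one member with a fold over 1.5 and an unadjusted limma P below 0.05 above its controls (1.51-fold, adjusted P = 0.177). Without the second control, at 12.04 TPM, its log2 difference went from 0.60 to 0.40. Among the 3 lines, U11 by sequencing was lowest in line 79 and highest in line 87. Line 79 had the lowest mean of all 5 genes, and the highest mean was in line 87 for DUSP5 and in line 86 for DUSP4, SPRY2, SPRED1 and ETV5.

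**Figure D2:**
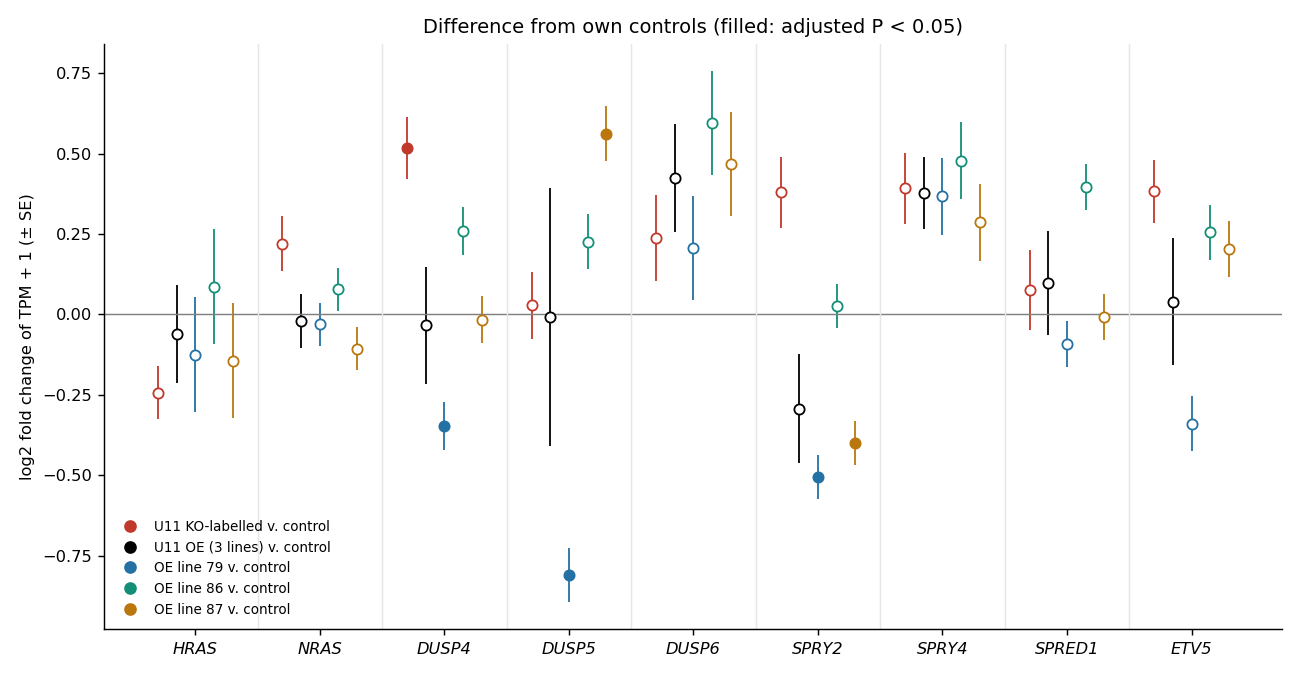
Log2 fold change of TPM + 1 (vertical axis) with its standard error for each of the 9 genes in the knockout comparison, the pooled overexpression comparison and each line label against the shared controls; filled points have an adjusted P below 0.05. DUSP5 spans -0.81 in line 79 to 0.56 in line 87, while its pooled value sits at -0.01.

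Ratios between 2 genes in one library do not depend on how that library was scaled, and they are given as descriptions. The HRAS to NRAS ratio of TPM was 2.79 and 2.61 in the knockout-set controls and 1.87 and 2.02 in the libraries labelled U11 knockout, without overlap. It was 2.99 to 4.66 over the overexpression set, and both extremes came from line 79. The DUSP5 to DUSP4 ratio was 0.635 and 0.636 in the knockout-set controls and 0.447 and 0.445 in the labelled libraries. In the overexpression set it was 0.569 and 0.552 in the controls, 0.393 and 0.401 in line 79, 0.562 and 0.537 in line 86, and 0.859 and 0.837 in line 87. The 2 nuclear ERK phosphatases thus did not keep 1 proportion. The SPRY2 to SPRY4 ratio was 1.79 and 1.73 in the overexpression-set controls and 0.936 to 1.37 in all 6 overexpression libraries, since SPRY4 stood above its controls in every one and SPRY2 stood below them in lines 79 and 87.

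**Figure D3:**
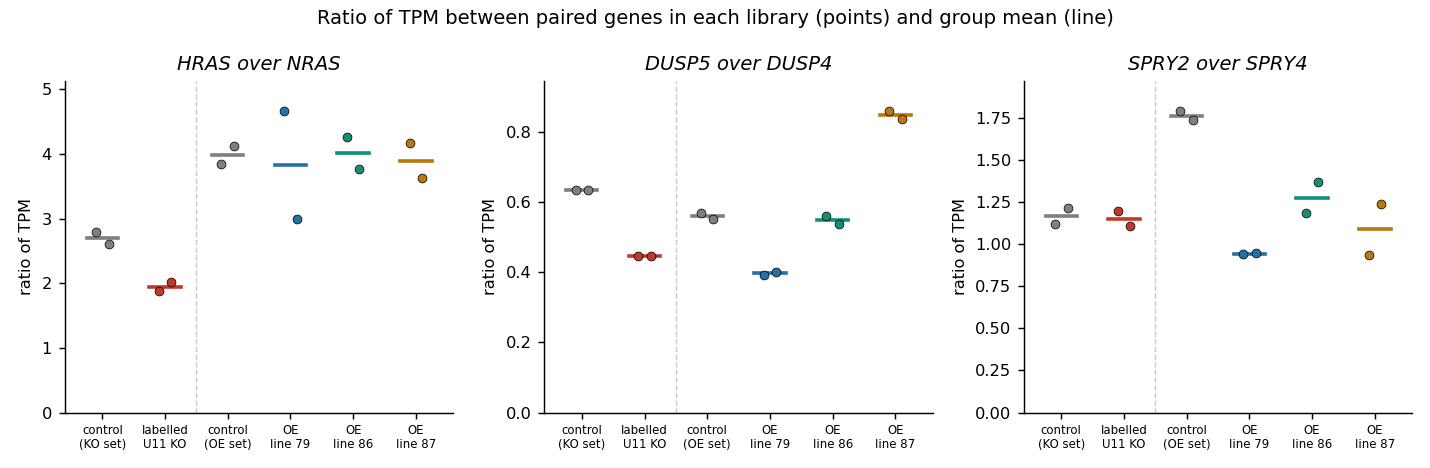
Ratio of TPM (vertical axis, from 0) between HRAS and NRAS, DUSP5 and DUSP4, and SPRY2 and SPRY4 in each library; points are libraries and lines are group means of 2. The DUSP5 to DUSP4 ratio goes from 0.635 and 0.636 to 0.447 and 0.445 in the libraries labelled U11 knockout and reaches 0.859 and 0.837 in line 87.

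The effects of the knockout label and of pooled overexpression were then compared directly, each against its own controls, in a single limma fit. SPRY2 alone passed the thresholds of the study, which 11.2% of 16404 genes did: it was higher under the knockout label (0.38) and lower under overexpression (-0.29), a difference of 0.67 ± 0.25 (limma adjusted P = 0.177). The pooled overexpression value of SPRY2 did not pass on its own (limma adjusted P = 0.898), and line 86 stood at 0.03 against the controls. Median ratio scaling ended the call on the difference. No member had an adjusted P below 0.05, which 2.96% of all genes had. For DUSP4 the difference was 0.55 ± 0.26 (limma adjusted P = 0.287), and for SPRY4, at 0.39 and 0.38 in the 2 comparisons, it was 0.01 ± 0.17.

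Over the 8 libraries of the overexpression set, which share 2 series and come as pairs from 4 groups, DUSP5 and ETV5 followed each other most closely of the 36 pairs of members (Pearson r = 0.937), before DUSP4 and ETV5 (0.915) and DUSP4 and SPRED1 (0.859). HRAS followed no other member above 0.54. Outside the list, DUSP4 was most like MAPKBP1 (r = 0.9996), a scaffold protein of the JNK pathway, followed by THSD1 (0.992) and ZDHHC2 (0.991). DUSP5 was most like the histone variant gene H2AFV (0.995), then RP11-554I8.2 and SFTA1P. For SPRY2 the closest were AF001548.5, CDC16 and TSPAN15 (0.991 to 0.987), for SPRED1 HCLS1, GABBR1 and UHRF1BP1 (0.985 to 0.981), and for ETV5 FAM86JP, PAQR8 and SIRPA (0.987 to 0.986). HRAS had MIRLET7D, RING1 and PFN1 (0.965 to 0.944), NRAS had JADE2, TRA2B and STS (0.977 to 0.961), DUSP6 had FHL3, TTC28 and RP11-214K3.18 (0.943 to 0.937), and SPRY4 had RP11-863P13.3, NSUN4 and BICD2 (0.944 to 0.930). With 8 libraries and 15768 genes, such values are a description.

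The wider pathway was read from 4 lists. Of 12 related feedback inhibitors, 7 were tested in the knockout comparison, 3 rose past the thresholds and none fell, with a median of 0.533, where 11.8% of all 14356 genes passed (1236 higher and 452 lower) and the median of all genes was 0.108. DUSP10, a phosphatase that acts mainly on JNK and p38, was 6.84 and 7.15 TPM against 2.28 and 2.60 TPM (log2 fold change 1.22 ± 0.12, limma adjusted P = 0.0177). SPRED2, the paralogue of SPRED1, was 10.6 and 8.79 TPM against 4.67 and 4.60 TPM (0.92 ± 0.14, limma adjusted P = 0.032). SPRED3 was 3.56 and 2.50 TPM against 1.55 and 1.59 TPM (0.64 ± 0.17, adjusted P = 0.09). SPRED2 thus rose where SPRED1 overlapped with its controls. Of the 7 tested, 6 were higher and 1 was lower. The lower was ERRFI1, at 22.5 and 25.3 TPM against 28.7 and 31.6 TPM, which did not pass the thresholds. SPRY1, SPRY3, DUSP2 and DUSP8 were below 1 TPM in all 4 libraries.

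Of 16 other ERK target genes, 4 rose and 1 fell, again beside 11.8% of all genes, and their median of 0.0632 lay below the 0.108 of all genes. PLAUR, the urokinase receptor, was 125 TPM in both labelled libraries against 69.3 and 66.0 TPM (0.87 ± 0.08, limma adjusted P = 0.0152). The immediate early gene EGR1 was 2.32 and 2.75 TPM against 0.795 and 0.991 TPM (0.90 ± 0.14, limma adjusted P = 0.0339). FOS (0.69) and EPHA4 (1.84) passed the thresholds but not the adjustment, and EPHA4 was uneven at 14.5 and 4.41 TPM. HBEGF, a ligand of the EGF receptor, fell from 42.3 and 47.2 TPM to 21.9 and 21.4 TPM (-1.01 ± 0.10, limma adjusted P = 0.018). The ERK targets therefore did not move 1 way.

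Of 16 RAS regulators, 2 rose and 1 fell, beside 11.8% of all genes, and none had an adjusted P below 0.05, which 7.82% of all genes had. The RAS GTPase activator RASA2 was 15.7 and 13.4 TPM against 6.64 and 9.59 TPM (0.78 ± 0.20, limma adjusted P = 0.0805), and the exchange factor SOS2 was 15.7 and 14.0 TPM against 8.78 and 9.82 TPM (0.62 ± 0.13, adjusted P = 0.0538). The adaptor GRB2 was 19.3 and 22.2 TPM against 27.3 and 53.0 TPM, with controls that differed by more than the groups' nearest libraries. Of the 12 RAF, MEK, ERK and scaffold genes, none passed the thresholds, while PEA15, which holds ERK in the cytoplasm, was 73.3 and 72.6 TPM against 48.4 and 48.8 TPM (1.49-fold, limma adjusted P = 0.0297).

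In the pooled overexpression comparison no gene of the 4 lists passed the thresholds. The lines differed (limma F test, adjusted P below 0.05) in 8 of 16 ERK targets, 4 of 8 related inhibitors tested, 4 of 12 RAF, MEK, ERK and scaffold genes and 2 of 15 RAS regulators tested, beside 16.0% of all genes, a share that the RAS regulators did not exceed. Against the controls, 6 of the 16 ERK targets had an adjusted P below 0.05 in line 79 (2 higher and 4 lower, beside 9.91% of all genes), 2 in line 86 (both higher, beside 1.96%) and 2 in line 87 (both lower, beside 3.68%, limma). EREG and AREG encode EGF receptor ligands. In line 79, EREG was 23.6 and 24.7 TPM against 46.6 and 46.0 TPM in the controls (limma adjusted P = 0.0018). AREG was 4.95 and 4.63 TPM in line 79 against 8.68 and 10.6 TPM (adjusted P = 0.00735). HBEGF was 131 and 129 TPM in line 79 against 74.7 and 70.5 TPM (adjusted P = 0.00101). In line 79, SPRED2 was 11.7 and 12.1 TPM against 18.8 and 16.6 TPM (-0.53 ± 0.09, limma adjusted P = 0.0151) and ERRFI1, an inhibitor of the EGF receptor, was 86.3 and 86.2 TPM against 64.1 and 63.0 TPM (0.43 ± 0.06, adjusted P = 0.00752). These were the 2 related inhibitors called there, 1 in each direction. The cytokine gene LIF was 38.4 and 36.1 TPM in line 79 and 42.2 and 41.9 TPM in line 87, below its controls at 71.4 and 68.6 TPM, and 114 and 104 TPM in line 86, above them. CDH5 was 34.1 and 32.2 TPM in line 79 and 3.08 to 5.28 TPM in the other 6 libraries of this set, while VWF, PECAM1 and KDR stayed below 1 TPM throughout; its part in the line differences was not tested.

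**Figure D4:**
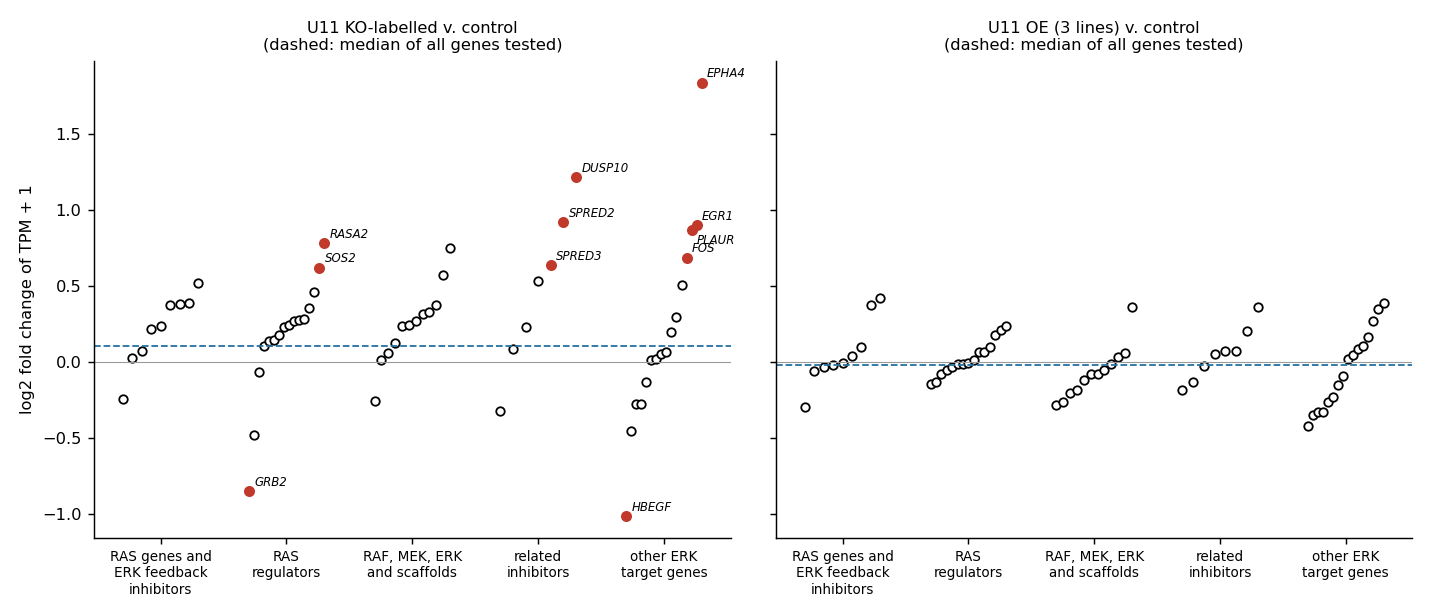
Log2 fold change of TPM + 1 (vertical axis) of every tested gene of the 9 RAS and feedback genes and of the 4 pathway lists, in the knockout comparison (left) and the pooled overexpression comparison (right); each point is a gene, red points passed the thresholds and are named, and the dashed line is the median of all genes tested. Among the lists on the left, DUSP10, SPRED2 and SPRED3 rose while GRB2 and HBEGF fell, and no point on the right passed.

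BRAF and MAPK3, which hold a U12-type intron start, were measured at the level of the whole gene, so that the values say nothing of how those introns were spliced. BRAF was 15.6 and 13.5 TPM in the libraries with the knockout label against 10.3 and 12.7 TPM (0.32 ± 0.15, limma adjusted P = 0.232). MAPK3 was 28.4 and 29.6 TPM against 39.5 and 30.6 TPM (-0.25 ± 0.15, adjusted P = 0.313). Neither passed after adjustment. In the overexpression set MAPK3 was 71.9 to 86.8 TPM in series R17018 and 60.1 to 66.0 TPM in series R18019, a gap between series and not between groups. BRAF differed between lines (limma F test, adjusted P = 0.0424), at 11.3 and 11.7 TPM in line 79 and 14.2 to 16.0 TPM in the other 6 libraries.

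**Figure D5:**
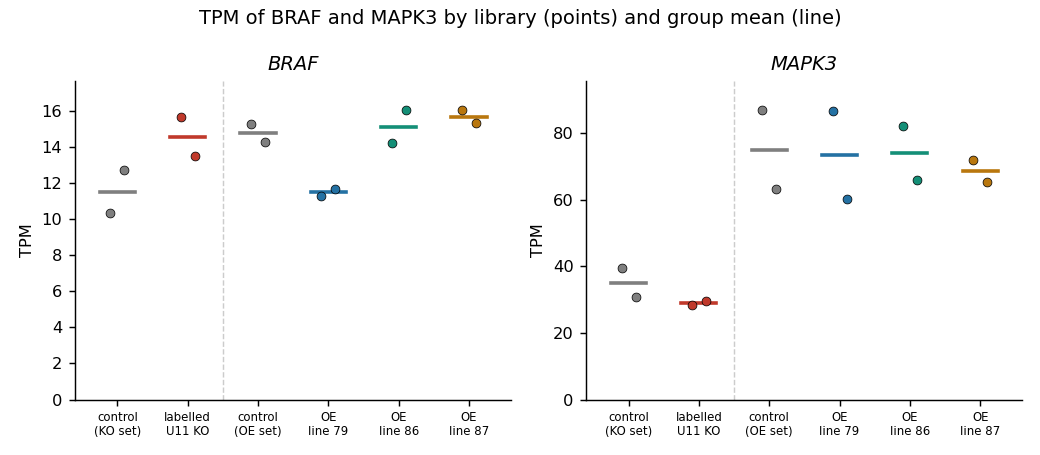
TPM (vertical axis, from 0) of BRAF and MAPK3, pathway genes with a U12-type intron start, in each library; points are libraries and lines are group means of 2. BRAF is lowest in line 79 of the overexpression set, at 11.3 and 11.7 TPM.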

How the data were processed

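RNA of T24 cells was sequenced in 12 libraries, with 2 libraries labelled U11 knockout, 2 for each of 3 overexpression line labels, and 2 untreated controls per comparison. The authors trimmed reads with fastp, aligned them to hg38 with Hisat2 and assembled each library with Stringtie; the labels name polyA RNA, whereas the methods describe ribosomal RNA depletion. The deposited tables hold TPM, FPKM and coverage signal per gene, per the file headers. TPM as deposited was used for all tests, FPKM for an alternative, and the ratio of coverage to FPKM for the aligned bases per library. Read counts were not used here, so that no counting error is given and DESeq2, named in the methods, was not run.

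The 9 genes and the pathway lists were chosen with earlier results of these data known. Tests used limma 3.58.1 in R 4.3.3 (empirical Bayes with a trend of variance on mean level) applied to log2(TPM + 1) of genes that reached 1 TPM in 2 or more libraries of the comparison, with Benjamini-Hochberg adjustment over all genes tested. Fold changes on this scale understate the change of low genes. All 9 genes were named, and from each list the genes past an unadjusted P below 0.05 and a fold change of at least 1.5, up to 4 by size, or members of a counted set. For each of the 9, the 3 genes with the highest Pearson correlation over 8 libraries were named. The pipeline was tested on simulated data. The alternatives were a pseudocount of 0.1, FPKM, median ratio scaling, no filter, no trend, rescaling without histone cluster genes, all 12 libraries in one fit, replicate and series blocks, and the mean of each line. Single series, leaving out libraries in the line and difference fits, and the pseudocount in the line differences were added after seeing the data. Python 3.11.15 was used to search introns. Some genes of the pathway lists are not reported here, while counts and medians over the lists include them.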

Additional observations from a re-analysis of the deposited data

Results flagged for a closer look

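Pairs of line labels that had the same controls differed, by limma's test of the difference itself, in 5 genes. On the log2(TPM + 1) scale, line 79 minus line 86 was -0.61 in DUSP4, -1.04 in DUSP5, -0.53 in SPRY2, -0.49 in SPRED1 and -0.59 in ETV5. Line 79 minus line 87 was -0.33 in DUSP4, -1.37 in DUSP5 and -0.54 in ETV5. Line 86 minus line 87 was 0.43 in SPRY2 and 0.41 in SPRED1. With any library left out, the adjusted P of the 5 differences between lines 79 and 86 was at most 0.0506, that of SPRY2 and SPRED1 between lines 86 and 87 at most 0.107 and 0.132, and that of DUSP4, DUSP5 and ETV5 between lines 79 and 87 at most 0.17, 0.00721 and 0.0722 (limma). In all 10 differences the 2 libraries of a line, which lie in different series, stood on the same side of both libraries of the other line. The differences were picked by adjusted P in these same libraries, so this is a description and no separate support. The effect of the knockout label on SPRY2 exceeded that of pooled overexpression by 0.67, with an adjusted P of 0.177 over all genes (limma). Among the 6 overexpression libraries, none stood apart by Dixon's test in any of the 9 genes. Each line label holds 2 of these libraries, so a line that differs can mask its own libraries in this test. The result therefore does not show that the libraries were alike.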

How the results depend on the processing

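The counts in the knockout comparison stayed at 0 under every alternative, and those in the pooled overexpression comparison stayed at 0 except for 1 within series R18019 alone (DUSP6), chosen after seeing the data, and a range of 0 to 1 when a library was left out, the 1 coming without control replicate 1. The 5 calls of line labels against controls ranged from 1 to 3 when a library was left out and became 6 with the library series as a replicate block and 4 with median ratio scaling. The 5 genes that differed between lines ranged from 4 to 5 when a library was left out. The 1 gene in the difference of effects became 0 with median ratio scaling and ranged from 0 to 2 when a library was left out; fewer libraries enter each such fit, and the cause was not tested further.

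Directions turned where values were near 0. DUSP5 in the knockout comparison became -0.064 with FPKM and -0.11 with median ratio scaling, and SPRED1 became -0.021 and -0.066, with -0.027 to 0.18 when a library was left out. In the overexpression comparison HRAS was 0.094 within series R17018 and -0.11 to 0.0076 when a library was left out, NRAS 0.045 within series R18019 and -0.073 to 0.033, and DUSP5 0.0020 with FPKM, 0.0096 with median ratio scaling and -0.13 to 0.16. HRAS in line 86 was -0.0097 to 0.18, and the difference of effects in SPRY4 was -0.14 with median ratio scaling and -0.053 to 0.083. The cause was not tested.

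The replicate numbers of the knockout set did not mark a pairing (correlation of deviations 0.0244). In the replicate block fit, the DUSP4 adjusted P was 0.142. In the overexpression set, the difference between the series within 1 group correlated with that of another group at 0.0704 to 0.15. With the library series as a block, the DUSP4 and DUSP5 differences between lines 86 and 87 reached 0.0443 and 0.0309 (limma, adjusted P). TPM gives no counting error, so depth limits could not be set for single values.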
